A study of Homo sapiens with 2 samples.

Results

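Translation initiation and elongation factors were followed in human embryonic stem cells with and without ZNF263. They were the genes whose symbol starts with EIF1 to EIF6 or EEF, without pseudogenes, antisense transcripts and the EIF2AK kinases. The rule used names only and found 62 of the 33592 gene symbols listed in either library, and all 62 were listed in each. The cells were of the H1 (WA01) line. One library came from unedited cells (WT) and the other from cells labelled as a homozygous ZNF263 knockout, 1-10 KO (KO), so each genotype had 1 library. ZNF263 is a zinc finger transcription factor. Cultured cells of high viability were paired with barcoded beads in microwells and their polyadenylated RNA was captured, a design adapted from Microwell-seq. The labels do not say what 1-10 stands for, whether the KO cells descend from a single clone, or how the WT cells were matched to them. Genotype, clone and library can therefore not be told apart.

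Translation starts when eIF2, loaded with GTP and the initiator tRNA, joins the small ribosomal subunit together with eIF1, eIF1A, eIF3 and eIF5. The eIF4 factors bring in the mRNA by its cap, and eIF5B joins the large subunit. The exchange factor eIF2B reloads eIF2 with GTP, and phosphorylated eIF2 blocks it. During elongation eEF1A delivers aminoacyl tRNAs, the eEF1B complex recharges eEF1A, eEF2 moves the ribosome along, and eIF5A helps at stalling sequences. Many elongation factor and ribosomal protein mRNAs carry a terminal oligopyrimidine (TOP) tract, a C at the cap followed by a run of pyrimidines, through which mTOR and LARP1 control their translation.

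Start site windows are shown first because the TOP tract is a sequence feature shared by a part of these mRNAs. Each window holds 30 bases of the RefSeq promoter table (GRCh38.p14), 15 before the annotated start and 15 from it on, on the strand of the gene. Capitals mark the tract searched for, a C at the annotated start followed by at least 4 pyrimidines (C or T), and windows without capitals lack it. EEF1A1 and EEF2 are textbook TOP mRNAs, EEF1B2, EIF2S3 and EIF3D had the tract and differed between the libraries, and EIF5A differed without it. EIF2S3B is a near copy of EIF2S3, shown because its reads could be mistaken for those of EIF2S3.
EEF1A1 (chr6:73521018-73521047, minus strand): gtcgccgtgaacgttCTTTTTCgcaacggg
EEF2 (chr19:3985449-3985478, minus strand): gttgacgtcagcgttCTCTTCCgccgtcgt
EEF1B2 (chr2:206159880-206159909, plus strand): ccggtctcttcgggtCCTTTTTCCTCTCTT
EIF2S3 (chrX:24054941-24054970, plus strand): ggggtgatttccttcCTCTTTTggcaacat
EIF2S3B (chr12:10505875-10505904, plus strand): ggggtgactttcttcCTCTTTTggcaacat
EIF3D (chr22:36529152-36529181, minus strand): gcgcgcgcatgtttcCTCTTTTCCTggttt
EIF5A (chr17:7306984-7307013, plus strand): atgggtgggaacccgaccacactagcgcgc

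The tract stood at an annotated start of 13 of the 49 members with a promoter entry (26.5%). It stood at 5.14% of all 27305 genes with an entry, at 4.07% of the 35116 promoters, and at 69.6% of 69 ribosomal protein genes. The other members with it were EIF2A, EIF2D, EIF3F, EIF3K, EIF3M, EIF4A2 and EIF4B. EEF1B2 and EIF2S3B each have another annotated start without the tract, and EIF5A has 6 annotated starts, none with it. EEF1G, a textbook TOP mRNA, lacked the tract at its annotated start. A match describes the letters at an annotated start, which need not be the start used in these cells. No entry matched EIF3E, EIF3H, EEF1AKMT1, EEF2KMT, EIF3A, EEF1AKMT3, EIF3L, EIF3CL, EIF2S2, EEF1A2, EIF3G and EEF1D.

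The 2 libraries were of like depth. Kept cells, with 1000 or more UMIs, 500 or more genes and no more than 20% of UMIs mitochondrial, numbered 2935 in WT and 2286 in KO with medians of 1328 and 1289.5 UMIs. Shallow barcodes, with 250 to under 1000 UMIs, numbered 56837 and 50551 with medians of 367 and 366 UMIs, and whether each holds a cell was not tested. Both sets come from the same libraries and are no replicates of each other. The libraries shared 20 kept barcodes and 4665 shallow ones. ZNF263 itself was at 17.8 CPM in WT and 7.57 CPM in KO kept cells, from 83 and 27 UMIs, a KO over WT ratio of 0.42 (0.26 to 0.66). In shallow barcodes it was at 15.6 and 8.54 CPM, from 372 and 180 UMIs, a ratio of 0.55 (0.45 to 0.65). The labels do not say whether counted reads lie in the edited part. All 10 pluripotency markers were measured in kept cells, with a summed level of 4464 CPM in WT and 5380 CPM in KO. Of them 5 were at least 1.2-fold higher in KO, beside 9.81% of all measured genes, and 5 lay within 1.2-fold. Of those within, SOX2, LIN28A, SALL4 and PODXL had log2 ratios of -0.14, -0.08, -0.05 and -0.18, and DPPA4 had 0.03. The 8 neural markers summed to 873 CPM in WT and 373 CPM in KO, and none was at 0. CRABP1 alone made up 512 and 270 CPM of these sums. The 5 measured ones were all at least 1.2-fold lower in KO (background 29.7%). Their log2 ratios ran from -3.54 (POU3F2) to -0.92 (CRABP1). Primitive streak markers summed to 35.5 and 11.8 CPM and fibroblast markers to 59.3 and 57.5 CPM, with DCN at 0 in both and COL3A1 at 0 in KO. The median mitochondrial share was 4.36% in WT and 5.10% in KO kept cells. The part of these differences in any ratio below was not tested.

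The translation factors as a whole took a like share of the UMIs in both libraries. The 61 members whose level is given summed to 14082 CPM in WT and 13872 CPM in KO kept cells, a log2 ratio of -0.02. In shallow barcodes the sums were 13500 and 13455 CPM. Ribosomal protein genes, the main class of TOP mRNAs, were at 219127 CPM in WT and 242702 CPM in KO kept cells over 84 genes. A gene counted as measured at a mean of at least 20 CPM over both libraries, and 44 members were measured.

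Most members lay within 1.2-fold between the genotypes. In kept cells 5 of the 44 measured members were at least 1.2-fold higher in KO (background 9.81% of 5710 measured genes) and 8 were at least 1.2-fold lower (background 29.7%), leaving 31 within. The share of 11.4% higher was near its background, and that of 18.2% lower was under it. In shallow barcodes 6 were higher (background 8.38% of 5731 genes), 7 were lower (background 28.3%) and 31 lay within. At 1.5-fold, kept cells held no member higher (background 1.98%) and 1 lower, EIF4ENIF1 (background 6.51%), and shallow barcodes 1 higher, EIF5A (background 1.78%), and 1 lower, EIF4G3 (background 5.57%). The median log2 ratio of the members was -0.09 in kept cells and -0.03 in shallow barcodes, beside -0.12 over all measured genes in each set. So 15 members lay above 0 and 29 below in kept cells, and 14 and 30 in shallow barcodes. Signs were the same in both sets for 39 of the 44. With a median below 0, most measured genes lay below 0 too, and their exact share is not given here.

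In all, 10 members were called the same way in both sets with both counting intervals off 1. EEF1B2, EIF1B, EIF2S3, EIF3G and EIF5A made up the 5 higher ones (background 5.81%), and EIF2B4, EIF2B5, EIF3D, EIF4ENIF1 and EIF4G3 the 5 lower ones (background 17.7%). The share of lower calls hangs on the scaling, since all measured genes lay 0.12 below 0 on the log2 scale in the median. After centring on that median, 6 members were higher in both sets, EIF3F being added (background 11.2%), and 2 were lower, EIF4ENIF1 and EIF4G3 (background 9.39%). Under the same centring kept cells had 8 members higher (background 17.8%) and 5 lower (background 18.2%). Shallow barcodes had 6 higher (background 16.1%) and 3 lower (background 16.2%).

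**Figure D1:**
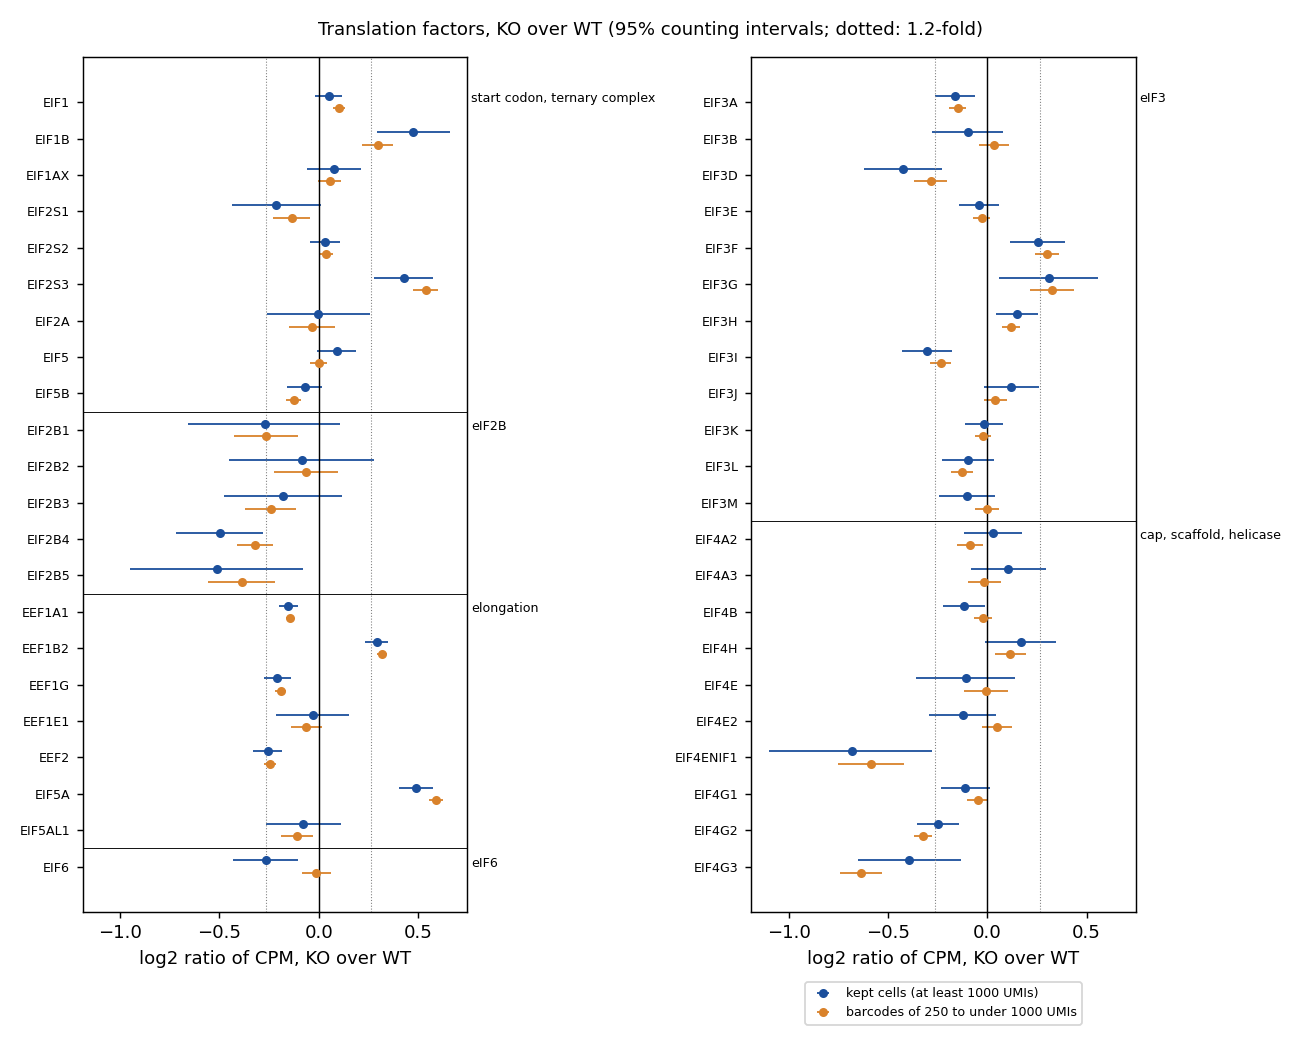
Log2 ratio of CPM, KO over WT, of the 44 measured members by role, in kept cells (blue) and shallow barcodes (orange), with 95% counting intervals as bars and dotted lines at 1.2-fold. EIF5A and EIF2S3 lie to the right and EIF4ENIF1 and EIF4G3 to the left of the dotted lines in both sets, and most other members lie between the lines.

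Start codon factors and eIF2 subunits held 2 members higher and none lower among 9 measured, in both sets. The background was 9.81% higher and 29.7% lower in kept cells and 8.38% and 28.3% in shallow barcodes. EIF2S3, on the X chromosome (24054956 to 24078810), encodes the gamma subunit of eIF2, which binds GTP and the initiator tRNA. It was at 155 CPM in WT and 208 CPM in KO kept cells, from 720 and 743 UMIs, 1.35-fold higher (95% interval 1.21 to 1.49). In shallow barcodes it was at 147 and 213.8 CPM, 1.45-fold higher (1.39 to 1.52). The intervals of the 2 libraries did not overlap in either set. Its copy EIF2S3B had 3 and 6 UMIs in kept cells. The partner subunits lay within 1.2-fold. EIF2S1, the alpha subunit and the target of the eIF2 kinases, was at 89.7 CPM in WT and 77.4 CPM in KO, a log2 ratio of -0.21 (-0.44 to 0.01). EIF2S2, the beta subunit, was at 691 and 707 CPM, a log2 ratio of 0.03 (-0.04 to 0.11).

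Of the eIF1 pair, which guards start codon choice, EIF1B differed more than EIF1. EIF1B, on chromosome 3 (40309707 to 40312424), was at 103 CPM in WT and 143 CPM in KO kept cells, 1.39-fold higher (1.23 to 1.58), and at 104 and 128 CPM in shallow barcodes, 1.23-fold higher (1.16 to 1.30). EIF1 was at 890 and 922 CPM in kept cells, with a log2 ratio of 0.05 (-0.02 to 0.12), and 0.10 (0.07 to 0.13) in shallow barcodes. The log2 intervals of the pair did not overlap in either set. EIF1AX, which works with eIF1 in scanning, was at 219 and 231 CPM, and its 2 pseudogene entries held UMIs equal to 89.0% and 79.7% of its own, so reads may have been split between them. EIF5, the GTPase activator of eIF2, was at 405 and 432 CPM. EIF5B, the subunit joining GTPase, was at 524 and 499 CPM, and EIF2A at 61.7 CPM in both libraries.

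All 5 subunits of eIF2B, the exchange factor for eIF2, had log2 ratios below 0 in both sets, from -0.51 to -0.08 in kept cells. That uniform sign depended on the scaling, since after centring on the gene median EIF2B2 was at 0.03 in kept cells and 0.06 in shallow barcodes. Their summed level was 250.1 CPM in WT and 197 CPM in KO kept cells and 241 and 199.8 CPM in shallow barcodes. Of the 5, 3 were at least 1.2-fold lower in each set (background 29.7% in kept cells and 28.3% in shallow barcodes). The median log2 ratio of the 5 was -0.27 and -0.26, beside -0.12 over all measured genes in each set. EIF2B4, the delta subunit (chromosome 2, 27364352 to 27370338), was at 107 CPM in WT and 75.7 CPM in KO kept cells, 1.41-fold lower in KO (1.22 to 1.64). In shallow barcodes it was at 101 and 81.3 CPM, 1.25-fold lower (1.17 to 1.33). EIF2B5, the catalytic epsilon subunit (chromosome 3, 184135358 to 184145311), was at 28.0 and 19.6 CPM in kept cells from only 130 and 70 UMIs, 1.42-fold lower (1.06 to 1.93). The shallow levels were 30.1 and 23.0 CPM, 1.31-fold lower (1.16 to 1.47). EIF2B1, the alpha subunit, was at 32.5 and 26.9 CPM in kept cells with an interval of its log2 ratio that spans 0 (-0.66 to 0.11). EIF2B2, the beta subunit, was at 32.7 and 30.8 CPM, and EIF2B3, the gamma subunit, at 50.1 and 44.3 CPM, both with intervals that span 0. After centring on the gene median, the calls of EIF2B4 and EIF2B5 did not stand in both sets.

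The 12 measured subunits of eIF3, the large scaffold on the small ribosomal subunit, went both ways. In kept cells 1 was higher (background 9.81%) and 2 were lower (background 29.7%), and in shallow barcodes 2 were higher (background 8.38%) and 1 was lower (background 28.3%). EIF3G, an RNA-binding subunit (chromosome 19, 10115014 to 10119899), was at 60.2 CPM in WT and 74.6 CPM in KO kept cells, 1.24-fold higher (1.04 to 1.47), and at 53.3 and 66.9 CPM in shallow barcodes, 1.25-fold higher (1.16 to 1.35). EIF3F was at 192 and 229.5 CPM in kept cells, 1.19-fold higher (1.08 to 1.31), and 1.23-fold higher in shallow barcodes, but its 2 pseudogene entries held 80.2% and 63.7% of its own UMIs. EIF3D, the subunit that can bind the mRNA cap (chromosome 22, 36510855 to 36529166), was at 128 CPM in WT and 95.3 CPM in KO kept cells, 1.34-fold lower in KO (1.17 to 1.54). Shallow barcodes held 116 and 95.1 CPM, 1.22-fold lower (1.15 to 1.29). EIF3I, a core subunit, was at 285 and 231 CPM in kept cells, 1.23-fold lower, and 1.18-fold lower in shallow barcodes. The core subunits EIF3A, at 429 and 383 CPM, and EIF3B, at 131 and 122 CPM, lay within 1.2-fold. So did EIF3E, EIF3H, EIF3J, EIF3K, EIF3L and EIF3M, with log2 ratios between -0.10 and 0.15 in kept cells. Pseudogene entries of EIF3L held UMIs equal to 39.8% and 30.9% of its own.

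Among the factors that bring the mRNA to the ribosome, none of 10 measured was higher (background 9.81% in kept cells and 8.38% in shallow barcodes). In kept cells 2 were lower, a share under the background of 29.7%. In shallow barcodes 3 were lower, a share near the background of 28.3%. EIF4ENIF1, the eIF4E transporter that carries eIF4E into processing bodies and binds it away from translation (chromosome 22, 31436963 to 31493568), had the lowest ratio of all measured members in kept cells. It was at 33.8 CPM in WT and 21.0 CPM in KO kept cells, from 157 and 75 UMIs, 1.61-fold lower in KO (1.21 to 2.14). In shallow barcodes it was at 33.6 and 22.4 CPM, a log2 ratio of -0.58 (-0.75 to -0.42).

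The 3 eIF4G scaffolds differed in size of ratio. EIF4G3, on chromosome 1 (20806292 to 21176897), was at 72.5 CPM in WT and 55.2 CPM in KO kept cells, a log2 ratio of -0.39 (-0.65 to -0.13), and at 84.2 and 54.3 CPM in shallow barcodes, a log2 ratio of -0.63 (-0.74 to -0.53). EIF4G2, the scaffold DAP5 that lacks the eIF4E site, was at 398 and 335 CPM, a log2 ratio of -0.25 (-0.35 to -0.14), and -0.32 (-0.37 to -0.28) in shallow barcodes. EIF4G1, the main scaffold, was at 275 and 254 CPM, a log2 ratio of -0.11 (-0.24 to 0.01). The interval of EIF4G3 overlapped that of EIF4G1 in kept cells and not in shallow barcodes, where EIF4G1 had -0.05 (-0.10 to 0.00).

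The cap binder EIF4E was at 68.6 CPM in WT and 63.6 CPM in KO kept cells, a log2 ratio of -0.11 (-0.36 to 0.14), and its relative EIF4E2, a cap binder linked to repression, was at 149 and 137 CPM. Pseudogene entries of EIF4E held 17.6% and 30.8% of its own UMIs. The helicases EIF4A2, at 184 and 188 CPM, and EIF4A3, a part of the exon junction complex at 111 and 119 CPM, lay within 1.2-fold, as did the helicase partners EIF4B, at 383 and 352 CPM, and EIF4H, at 120 and 134 CPM. Pseudogene entries held UMIs equal to 24.2% and 24.3% of those of EIF4B, and to 48.6% and 34.7% of those of EIF4H. EIF4A1, the main eIF4A helicase, was not among the listed symbols. The RefSeq gene SENP3-EIF4A1 overlaps it on chromosome 17 (7572825 to 7579006), and that symbol had no UMI in kept cells, so EIF4A1 is not described here.

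Elongation factors held the member with the highest ratio and those with the most UMIs. EIF5A, the factor that carries the modified residue hypusine, lies on chromosome 17 (7306999 to 7312463). It was at 459.5 CPM in WT and 645 CPM in KO kept cells, from 2137 and 2303 UMIs, 1.40-fold higher (1.32 to 1.49). In shallow barcodes it was at 444 and 668 CPM, 1.51-fold higher (1.47 to 1.55). No copy of EIF5A was called. EIF5AL1, a second gene for nearly the same protein, was at 119 and 113 CPM, a log2 ratio of -0.08 (-0.27 to 0.11), and EIF5A2 was at 8.39 and 5.89 CPM from 39 and 21 UMIs. Pseudogene entries of EIF5A held under 1% of its UMIs in either library. EIF5AL1 is not among those entries and had 554 UMIs in WT and 403 in KO kept cells. Reads may therefore have been split between EIF5A and EIF5AL1.

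EEF1B2, the exchange subunit of eEF1B (chromosome 2, 206159609 to 206162928), was at 1063 CPM in WT and 1302 CPM in KO kept cells, 1.23-fold higher (1.18 to 1.28), and at 1015 and 1268 CPM in shallow barcodes, 1.25-fold higher (1.23 to 1.27). Pseudogene entries held 24.8% and 21.0% of its UMIs. Its binding partner EEF1G, the gamma subunit, was at 979 and 848 CPM, with a log2 ratio of -0.21 (-0.28 to -0.14), and -0.19 in shallow barcodes. The 2 subunits of one complex thus had opposite signs with intervals that did not overlap. EEF1A1, the tRNA carrier that they recharge, was at 1919 CPM in WT and 1726 CPM in KO, a log2 ratio of -0.15 (-0.20 to -0.11), and -0.14 in shallow barcodes. Its 28 pseudogene entries held 25.4% and 22.2% of its UMIs. EEF2, the translocase, was at 857 and 717 CPM, with a log2 ratio of -0.26 (-0.33 to -0.18), just inside 1.2-fold, and -0.24 in shallow barcodes. EEF1E1, a scaffold of the tRNA synthetase complex, was at 124 and 121 CPM. EIF6, which keeps free large subunits from joining, was at 167 and 139 CPM in kept cells, a log2 ratio of -0.27 (-0.43 to -0.10), and at 137 and 136 CPM in shallow barcodes, a log2 ratio of -0.01 (-0.08 to 0.06).

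The other 17 members were under 20 CPM in kept cells and are given as values only. Among them the elongation factor kinase EEF2K, which inhibits eEF2 by phosphorylation and was singled out after its values were seen, had 40 UMIs in WT and 37 in KO kept cells. That was 8.60 and 10.4 CPM, a log2 ratio of 0.27 (-0.42 to 0.95). In shallow barcodes it had 170 and 325 UMIs, 7.15 and 15.4 CPM, a log2 ratio of 1.11 (0.84 to 1.38). The 325 UMIs lay in 319 barcodes with at most 2 in one. EEF1AKMT1, a lysine methyltransferase of eEF1A, was at 13.8 CPM in WT and 9.25 CPM in KO kept cells and at 14.4 and 8.20 CPM in shallow barcodes, a log2 ratio there of -0.81 (-1.08 to -0.54). EEF1A2, the muscle and neuron form of eEF1A, had 7 UMIs in each library. EEF1D, the delta subunit of eEF1B, had only 12 and 5 UMIs, and 4 entries named as its pseudogenes had 929 and 540, so its level cannot be read here. The near-identical EIF3C and EIF3CL had 34 and 19, and 12 and 8 UMIs. EIF4E3 was at 8.39 and 8.41 CPM, and EIF4E1B, an oocyte form, had 0 and 2 UMIs.

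Barcodes were split by depth into 4 ranges (250 to under 500, 500 to under 1000, 1000 to under 2000, and 2000 or more UMIs). In KO, 11 measured members were higher in all 4 ranges, 18 were lower in all 4 and 15 were mixed. All measured genes had median log2 ratios of -0.11, -0.11, -0.11 and -0.12 in these ranges. Their counts of this kind are not given here, so the lean to lower cannot be read as a trait of the members. EIF5A had log2 ratios of 0.61, 0.56, 0.55 and 0.36 from the shallowest to the deepest range, and EIF2S3 had 0.53, 0.56, 0.52 and 0.22. EIF4ENIF1 had -0.49, -0.74, -0.71 and -0.62, and EIF4G3 had -0.60, -0.69, -0.34 and -0.56. The deepest range held 515 WT and 374 KO barcodes, and there EIF3G was level between the libraries with a log2 ratio of 0.02.

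**Figure D2:**
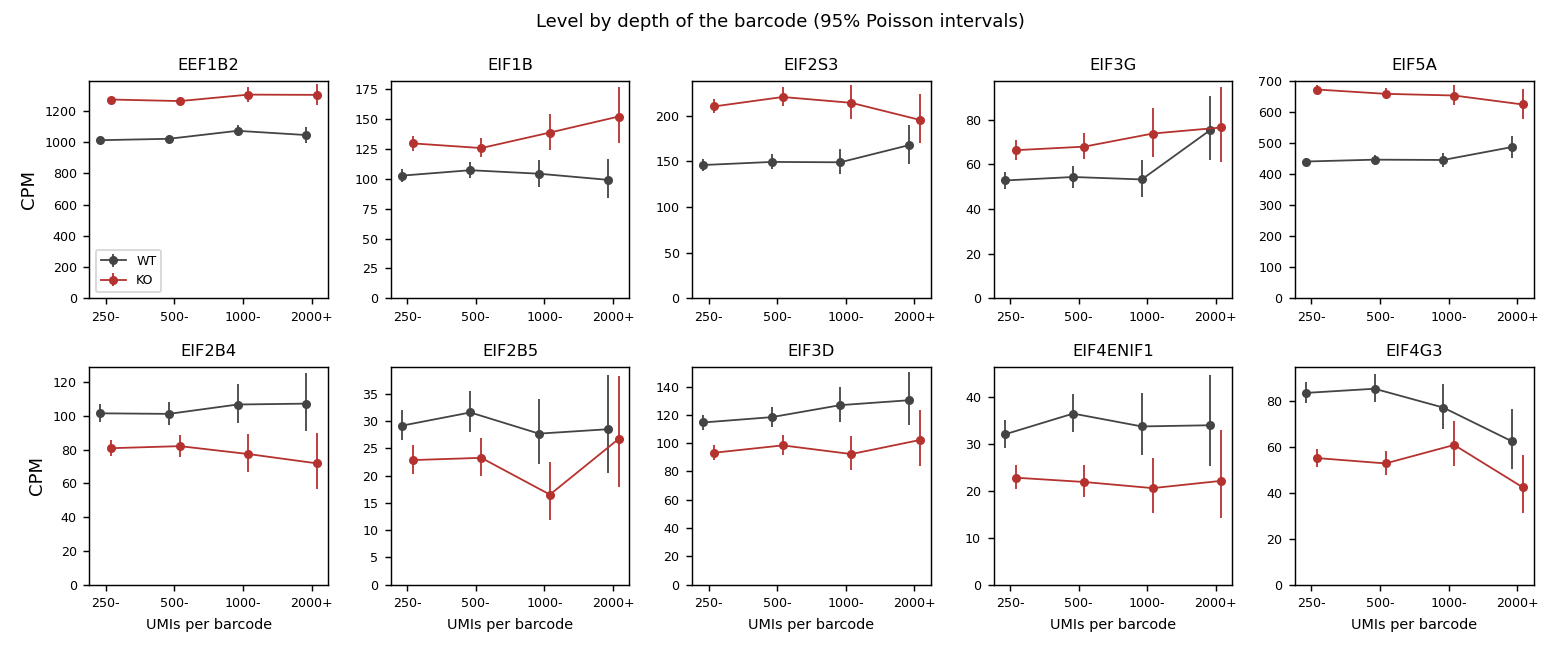
CPM of the 10 members called in both barcode sets, in 4 ranges of UMIs per barcode, in WT (grey) and KO (red), with 95% Poisson intervals as bars. The KO points lie above WT for EEF1B2, EIF1B, EIF2S3 and EIF5A and below WT for EIF2B4, EIF3D, EIF4ENIF1 and EIF4G3 in all 4 ranges, while EIF3G and EIF2B5 come together in the deepest one.

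Ratios were also taken over the kept cells with no UMI of the 8 neural markers, 1170 in WT and 1331 in KO, which were 39.9% and 58.2% of the kept cells with medians of 1278 and 1236 UMIs. At this depth the absence of such UMIs does not show that a cell is not neural, so the part of cell types in the ratios was not tested by it. In these cells, a part of those used for the calls, all 10 called members had the same sign as over all kept cells. Because of that overlap a kept sign is no separate support. EIF5A had a log2 ratio of 0.47 (0.34 to 0.60), EIF2S3 0.57 (0.33 to 0.80), EIF1B 0.28 (0.01 to 0.55), EIF3G 0.46 (0.07 to 0.85) and EEF1B2 0.23 (0.14 to 0.32), the last now inside 1.2-fold. EIF2B4 had -0.43 (-0.75 to -0.11) and EIF3D -0.44 (-0.75 to -0.14). The ratios of EIF2B5 at -0.40, EIF4ENIF1 at -0.45 and EIF4G3 at -0.33 had intervals that span 0 in these fewer cells.

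Within each library the summed level of the translation factors was lower in cells with a higher mitochondrial share. Kept cells were split into tertiles of mitochondrial share, with medians of 1.25%, 4.37% and 7.34% in WT and 1.57%, 5.10% and 8.44% in KO. Their median UMIs were 1371, 1211 and 1443 in WT and 1345.5, 1164 and 1463.5 in KO, so depth did not follow the share. Members summed to 15843, 13507 and 12944 CPM from the lowest to the highest tertile in WT and to 15448, 13675 and 12701 CPM in KO. With CPM taken over non-mitochondrial UMIs, which takes out the share itself, the sums were 16048, 14123 and 14035 in WT and 15704, 14415 and 13936 in KO. On that scale the median log2 ratio of highest over lowest tertile was -0.17 in WT and -0.20 in KO over the 44 members, beside -0.01 and -0.05 over 5694 genes. In both libraries 31 of the 44 members lay below 0, as did 2138 of the 5694 genes, and 13 did not, EEF1B2, EIF1, EEF1E1 and EIF3F lying between -0.06 and 0.05 in both. Of the members, 5 were at least 1.2-fold lower in both libraries, a share near the background of 10.8%, and 1 was higher in both (background 18.0%). EEF2, the translocase, had log2 ratios of -0.47 in WT and -0.44 in KO, and EIF4B, the helicase cofactor, had -0.41 and -0.64. EIF4A2, the helicase that EIF4B stimulates, was the one higher member, at 0.75 (0.50 to 1.00) in WT and 0.37 (0.10 to 0.64) in KO.

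**Figure D3:**
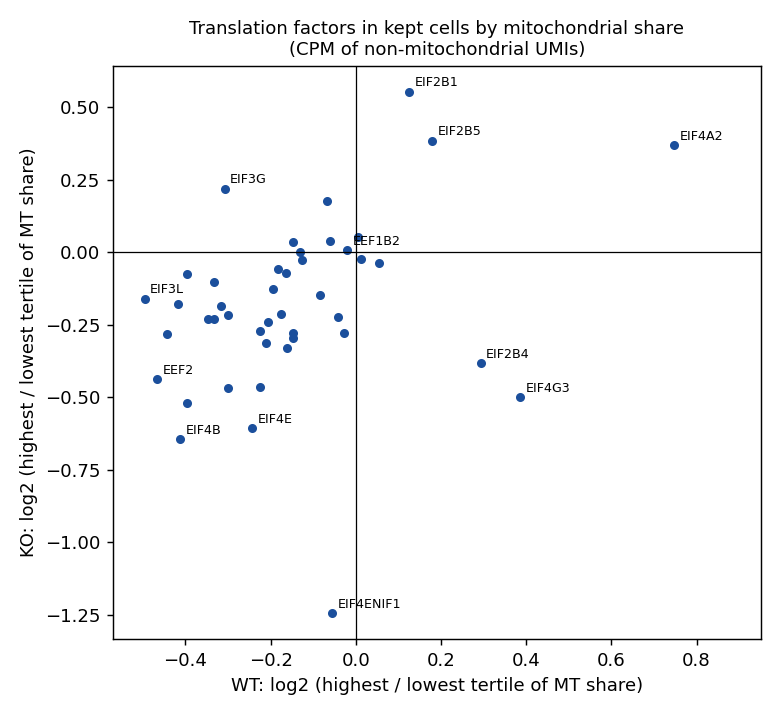
Log2 ratio of the highest over the lowest tertile of mitochondrial share in kept cells, from CPM over non-mitochondrial UMIs, in WT (horizontal axis) and KO (vertical axis), 1 point per measured member. Most points lie below 0 on both axes, EIF4A2 lies above 0 on both, and EIF2B4 and EIF4G3 lie above 0 in WT and below 0 in KO.

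The genotype ratio of some members differed by mitochondrial tertile. EIF4G3 had KO over WT log2 ratios of 0.01, -0.27 and -0.89 from the lowest to the highest tertile, with 55 KO UMIs in the highest. EIF4ENIF1 had -0.36, -0.31 and -1.56, the last from 54 WT and 15 KO UMIs. EIF2B4 had -0.11, -0.59 and -0.80. The higher members EEF1B2, with 0.28, 0.31 and 0.30, and EIF5A, with 0.43, 0.55 and 0.53, varied less between tertiles. Of the other higher members, EIF1B had 0.56, 0.40 and 0.45, EIF2S3 had 0.24, 0.54 and 0.55, and EIF3G had 0.02, 0.38 and 0.54. Of the other lower members, EIF3D had -0.49, -0.38 and -0.37, and EIF2B5 had -0.75, -0.18 and -0.56. The variation thus did not follow the direction of the call, and that of all genes is not given here. The difference between tertiles was not tested.

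The variance over the mean of the members across cells was close to that of counting noise in both libraries. Over cells thinned to 1000 UMIs, the variance over the mean of the 32 members with at least 0.1 UMI per cell in both libraries had a median of 1.02 in WT and 1.02 in KO. It ranged from 0.966 to 1.12 in WT and from 0.945 to 1.14 in KO, and EIF5B was the highest member in both. All 1464 genes at that level had medians of 1.04 and 1.03, where a value of 1 is that of pure counting noise.

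Of the 10 textbook TOP mRNAs among the members, 9 were measured. In kept cells 1 was higher (background 9.81%) and none lower (background 29.7%), and in shallow barcodes 2 were higher (background 8.38%) and none lower (background 28.3%). Their median log2 ratio was -0.12 in kept cells, beside -0.08 for the other 35 measured members, and the 2 medians were both -0.03 in shallow barcodes. Grouped by the tract at the annotated start, 11 measured members with it had 2 higher, 1 lower and a median of -0.02 in kept cells, with a range from -0.43 (EIF3D) to 0.43 (EIF2S3), the members whose tracts are shown above. The 27 measured members with an entry and no tract had 2 higher, 7 lower and a median of -0.11, close to the 29.7% lower and the median of -0.12 of all genes. In shallow barcodes the medians were nearer to each other, at -0.02 with the tract and -0.06 without it.

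Regulators of these factors were taken from 6 lists, and their counts stand beside the same backgrounds, 9.81% higher and 29.7% lower in kept cells and 8.38% and 28.3% in shallow barcodes. In the 4E-BP and mTOR list 2 of 6 measured genes were higher and 2 lower in kept cells. LARP1, which represses TOP mRNAs, was at 123 CPM in WT and 208 CPM in KO, a log2 ratio of 0.76 (0.60 to 0.91), and 0.79 (0.72 to 0.86) in shallow barcodes. MKNK2, an eIF4E kinase, was at 77.4 and 119.7 CPM, a log2 ratio of 0.63 (0.42 to 0.83), and 0.71 in shallow barcodes. Both ratios were above that of any measured member. MTOR was at 48.6 and 37.0 CPM, with a log2 ratio of -0.39 (-0.71 to -0.08), and its S6 kinase target RPS6KB1 at 25.6 and 17.4 CPM, with -0.56 (-1.03 to -0.10). The eIF4E inhibitors EIF4EBP1, at 140.2 and 127 CPM, and EIF4EBP2, at 144 and 130.3 CPM, lay within 1.2-fold, and EIF4EBP3 had no UMI in kept cells, with upper Poisson limits of 0.793 CPM in WT and 1.03 CPM in KO.

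On the eIF2 side 2 of 5 measured genes were higher and none lower in kept cells, and 1 and none in shallow barcodes. PPP1R15B, the constitutive subunit that directs dephosphorylation of eIF2, was at 21.5 CPM in WT and 30.6 CPM in KO, a log2 ratio of 0.51 (0.10 to 0.91), and 0.31 (0.15 to 0.47) in shallow barcodes. EIF2AK2, the kinase PKR, was at 47.7 and 58.9 CPM, with 0.30 (0.02 to 0.58), and 0.15 in shallow barcodes. ATF4, whose translation is induced when eIF2 is phosphorylated, was at 408 and 409 CPM as mRNA. EIF2AK1 and EIF2AK4, at 81.7 and 85.2 CPM and at 91.8 and 98.4 CPM, lay within 1.2-fold.

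Termination, recycling and rescue factors had none of 8 measured genes past 1.2-fold in kept cells and none of 7 in shallow barcodes. Among the poly(A) binding proteins and helicases only PAIP2B, an inhibitor of poly(A) binding protein, was past 1.2-fold in kept cells, at 24.7 CPM in WT and 35.0 CPM in KO, a log2 ratio of 0.50 (0.13 to 0.88). In shallow barcodes it was higher too, at 0.54, and PABPC4 and PAIP1 were lower, at -0.29 and -0.39. Hypusine, which eIF5A carries, is made from spermidine. In the list of hypusine and polyamine enzymes 1 of 3 measured was higher and 1 lower in kept cells. SMS, spermine synthase, lay within 1.2-fold with a log2 ratio of 0.03. ODC1, which starts polyamine synthesis, was at 190.1 and 127 CPM with a log2 ratio of -0.58 (-0.75 to -0.42). SRM, spermidine synthase, was at 78.9 and 98.4 CPM with 0.32 (0.10 to 0.53), and 0.26 in shallow barcodes, where it was not past 1.2-fold. DHPS and DOHH, which build hypusine, were under 20 CPM. In the last list, of nascent chain and ribosome-linked proteins, 1 of 4 was higher and 1 lower in kept cells. NPM1, a ribosome assembly protein, was at 1484 CPM in WT and 1848 CPM in KO with a log2 ratio of 0.32 (0.27 to 0.37). BTF3, a subunit of the nascent chain complex, was at 765 and 626 CPM with -0.29 (-0.37 to -0.21), and -0.23 in shallow barcodes, where it was not past 1.2-fold. Its partner NACA was at 1811 and 1754 CPM.

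**Figure D4:**
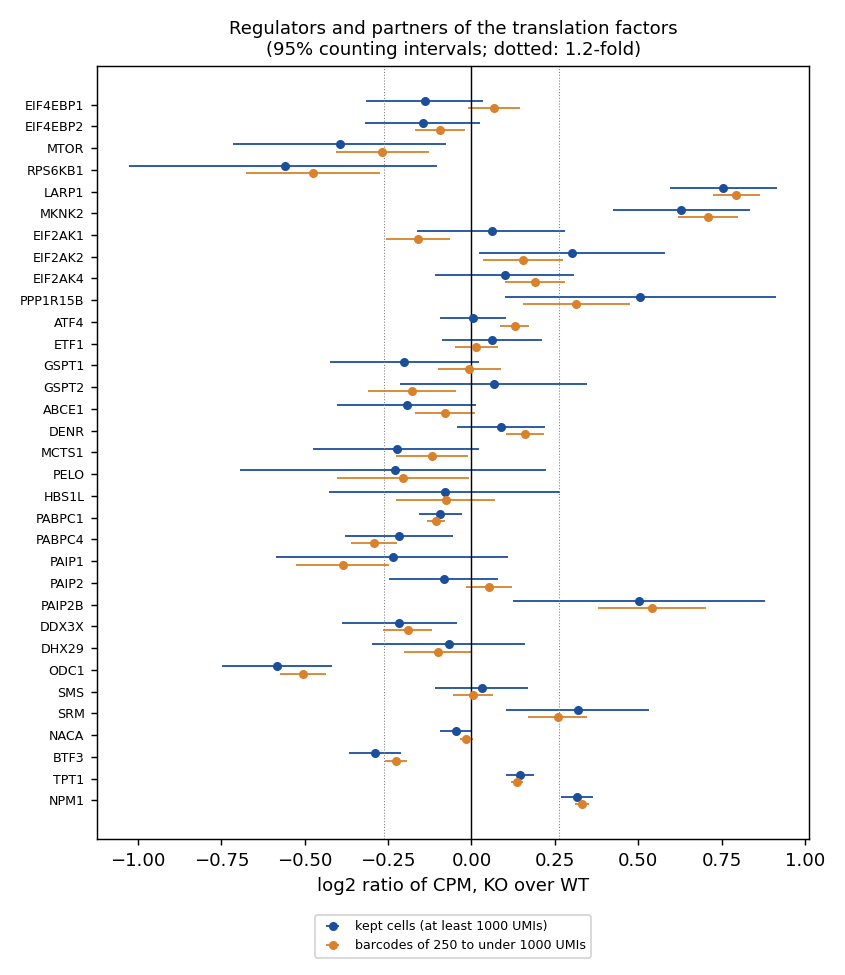
Log2 ratio of CPM, KO over WT, of the regulators and partners measured in kept cells, in kept cells (blue) and shallow barcodes (orange), with 95% counting intervals as bars and dotted lines at 1.2-fold. LARP1 and MKNK2 lie farthest to the right and ODC1 and RPS6KB1 farthest to the left in both sets, RPS6KB1 being under 20 CPM in shallow barcodes.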

How the data were processed

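The authors deposited 1 matrix of UMI counts (unique molecular identifiers, which mark single captured mRNA molecules) per genotype. The tools were STAR 2.7.10a, featureCounts 2.0.1 of Subread and UMI-tools 1.1.2 with build hg38, per the submitters' processing notes. Which gene annotation was used and whether barcodes were filtered is not given in the sources used here. The size line of the KO matrix fell 15 short of its entries, each of which was used.

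Kept cells had 1000 or more UMIs and 500 or more genes, and no more than 20% of their UMIs were mitochondrial, and shallow barcodes had 250 to under 1000 UMIs. No doublet caller was run. The deposited counts were summed per library and gene and divided by all UMIs of the set to give counts per 1000000 UMIs (CPM). Levels carry exact Poisson and ratios exact conditional binomial 95% intervals, which cover counting error only. With 1 library per genotype no test was run. A gene was measured at a mean of at least 20 CPM over both libraries and called at 1.2-fold or more. The members, role groups and lists were chosen with earlier results of these data known. Full values were given for members called the same way in both barcode sets with both intervals off 1, for extreme ratios and for paralogs. Symbols ending in P with optional digits were left out as pseudogenes, a rule that also removes EIF4EBP1, EIF4EBP2 and EIF4EBP3, which are described among the regulators. The Y-linked EIF1AY was counted, and its level is not given. The ratios were checked on simulated counts, and the outcome of that check is not given here. Alternatives covered the depth and mitochondrial limits, the deepest cells, the level minimum and the scaling. 2 more, cells with no neural marker UMI and cells of the middle mitochondrial tertile, were chosen after seeing the data. Python 3.11.15, NumPy 2.4.6, SciPy 1.17.1 and pandas 2.3.3 were used.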

Additional observations from a re-analysis of the deposited data

How the results depend on the processing

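Counts of lower members moved with scaling and level minimum. In kept cells 8 were lower, but 5 without ribosomal protein and mitochondrial genes in the total, 5 under median scaling and 5 among members of at least 50 CPM, and in shallow barcodes 7 became 4, 3 and 4. Kept cells had 5 higher members, 8 under median scaling and 9 in the middle mitochondrial tertile. That tertile had limits set over both libraries together (994 WT and 746 KO cells), unlike the tertiles within each library above. Under median scaling the background was 17.8% higher and 18.2% lower in kept cells and 16.1% and 16.2% in shallow barcodes. For the other settings the share over all genes is not given, so those counts cannot be read as a trait of the members. The members' median of -0.09 in kept cells became -0.13 at a minimum of 2000 UMIs, 0.026 under median scaling and 0.011 in the middle tertile. In shallow barcodes -0.03 became 0.029 without ribosomal protein and mitochondrial genes and 0.088 under median scaling. Under median scaling EIF4A2 and EIF5AL1 changed sign in shallow barcodes, to 0.032 and 0.012. Called on the same barcodes, which largely fixes the sign in advance, the 10 called members kept their sign in each of these alternatives. Of them EIF2S3 came inside 1.2-fold at a minimum of 2000 UMIs (0.22), EIF3G at that minimum and at a limit of 10% mitochondrial UMIs, EIF2B5 at that minimum and in the middle tertile, EEF1B2 in cells with no neural marker UMI, EIF1B in shallow barcodes of at least 500 UMIs (0.23), and EIF2B4 and EIF3D in shallow barcodes under both scalings. EIF4ENIF1, EIF4G3 and EIF5A stayed past it in these alternatives, but in the lowest tertile within each library EIF4G3 was at 0.01. For rescalings the change of the total, or under median scaling the shift by the gene median, is by construction the cause. For the others the cause was not tested. No paired analysis was possible because each genotype had 1 library, so no replicate could be left out and the spread between cultures is unknown. Members under 20 CPM were limited by depth.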
